A study of Mus musculus with 30 samples.

Results

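RNA taken directly from mouse forebrain at stage E13.5 was compared with RNA of neural stem/progenitor cells (NSPCs) that had been grown in culture from forebrain of the same stage. The tissue group is 1 library of total RNA from C57BL/6 embryos, with no treatment named. Whether it came from 1 embryo or from a pool is not given in the sources used here. The control group is 4 libraries of C57BL/6 NSPCs, which the study's design text calls biological replicates. They were treated at passage 2 to 3 for 24 h with DMSO, the solvent control, in DMEM/F12 medium with B27 and N2 supplements and 20 ng/ml each of EGF and FGF. These 5 libraries are part of 30 samples in all, which also hold NSPCs under 10 mM crotonate or 1 µM of the deacetylase inhibitor MS-275 (4 RNA libraries each), RNA of 6 forebrain explants of the ICR strain, and libraries of chromatin and DNA methylation. The labels of these groups name no altered gene.

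Of 53974 genes in the table, 15865 were kept, those with at least 1 TPM (the deposited length-scaled unit of transcript abundance) in the forebrain or in 2 or more controls. Of these, 2181 passed through the forebrain alone, with fewer than 2 controls at that level. Such genes were kept for their forebrain level, so that list counts and medians that rest on them are a description and support nothing. Differences are forebrain minus the mean of the 4 controls, in log2(TPM + 1), a scale that understates the change of low genes. A gene was called higher or lower when the difference was at least 1, that is 2-fold, and the forebrain value lay outside the range of the controls. With 1 tissue library no test was made, and the only spread measured is that between cultures, not between embryos. The NSPC label names a library kit and the forebrain label does not, so that tissue, growth in culture and library preparation cannot be told apart. In bulk RNA of this kind, fewer cells of a type and less RNA per cell cannot be told apart either.

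At this stage of development the wall of the forebrain is a layered tissue. Radial glia, the neural stem cells, divide along the ventricle and produce basal progenitors, which divide once more away from it and give rise to neurons. In the dorsal part these neurons become excitatory cortical neurons, and in the ventral part they become inhibitory GABAergic neurons that migrate into the cortex. Vessels, microglia and circulating blood lie within the same tissue. In culture, EGF and FGF hold progenitors in division, and FGF is known to induce the ventral and oligodendroglial factor Olig2 in such cells.

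The forebrain held 14980 genes at 1 TPM or more and the controls 13444 to 13696. It was higher than the controls for 3916 genes, 24.7% of those kept, and lower for 1675, or 10.6%. Higher genes were thus 70.0% of the called ones. This split depended on the scaling. The median difference over all genes was 0.35, and with median-of-ratios scaling, which brought that median to 0.07, higher genes were 55.7% of the called ones (2872 higher and 2284 lower). With quantile normalization they were 51.2%, at a median of 0.05. At 4-fold, 1241 genes were higher and 572 lower. In 173 genes the forebrain had at least 10 TPM while every control was under 1 TPM, and the reverse held for 79 genes. Across the genes kept, which are not independent, Pearson's r was 0.985 to 0.989 between controls and 0.823 to 0.828 between the forebrain and a control.

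**Figure D1:**
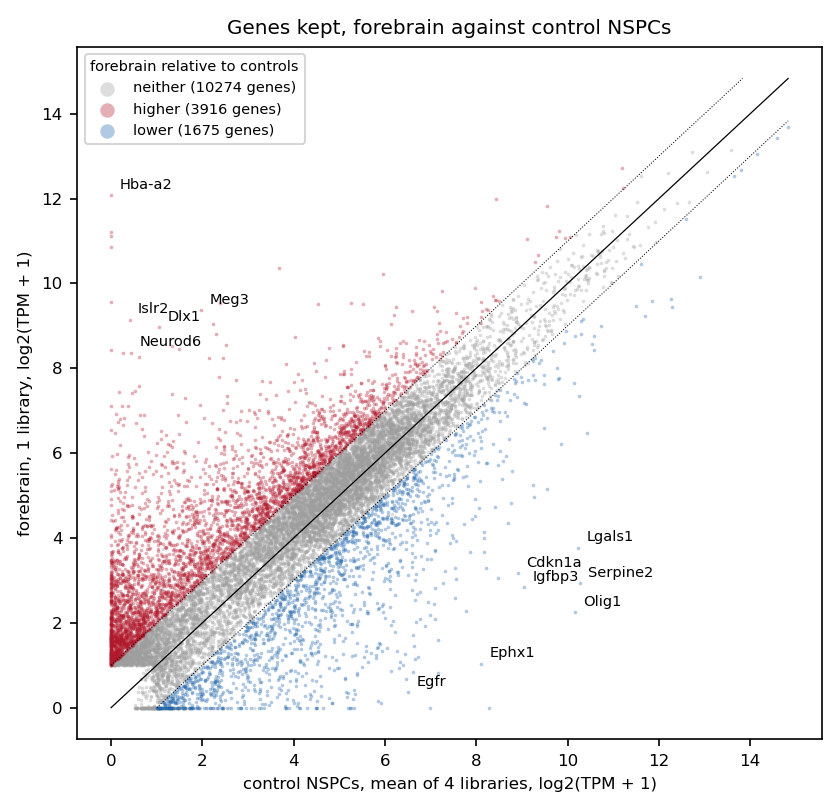
Level of each of the 15865 genes kept in the forebrain library (y axis) against the mean of the 4 control NSPC libraries (x axis), both in log2(TPM + 1). The solid line marks equal levels and the dotted lines a difference of 1. Red points are the 3916 genes called higher in forebrain and blue points the 1675 called lower, with some of the leading genes named.

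The RNA classes differed in how they were spread over these calls. Of 13241 protein-coding genes, 22.3% were higher in forebrain and 11.6% lower. Of 1380 long noncoding RNAs, 36.6% were higher and 6.45% lower. Among 670 pseudogenes, whose reads can stem from their parent genes, 34.6% were higher and 5.67% lower.

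The genes with the largest differences among those of at least 5 TPM in the higher group fell into few kinds. Of the 12 leading genes higher in forebrain, 6 were globins, 5 were neuronal or forebrain developmental genes or transcripts (Islr2, Stmn2, Neurod6, Dlx1 and the Dlx1 antisense RNA Dlx1as), and Meg3 is an imprinted noncoding RNA. The 12 leading genes lower in forebrain were Olig1, Serpine2, Ephx1, Lgals1, Slc25a18, Igfbp3, Egfr, Cpne7, Rab26, Angpt2, Cdkn1a and Fgf1. All 24 lay outside the range of the controls, as the call requires.

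**Figure D2:**
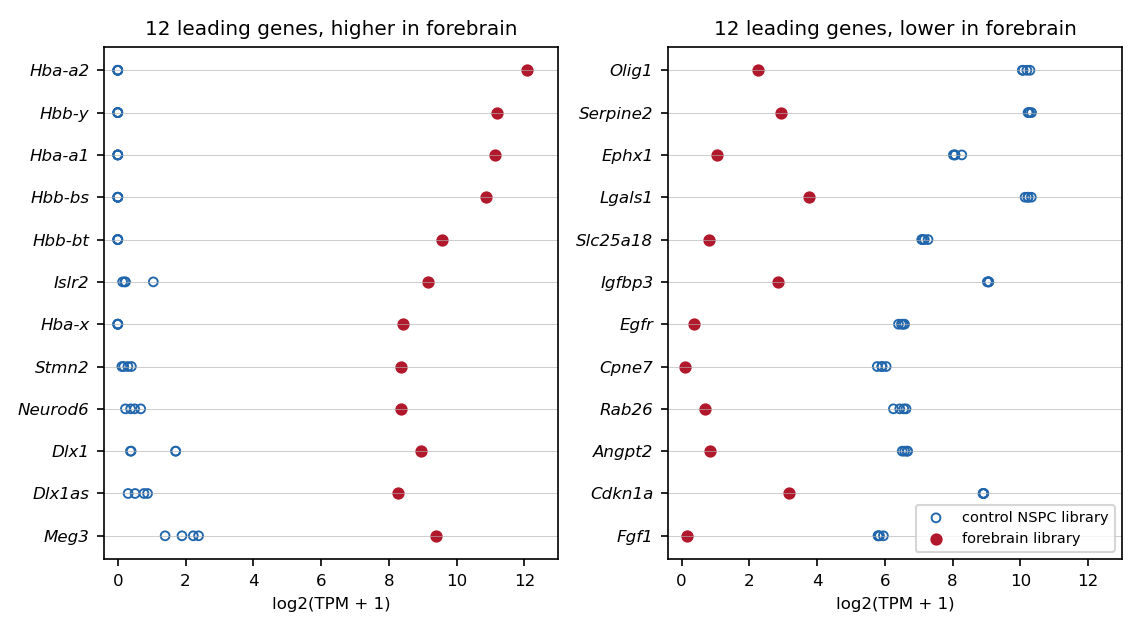
Level of the 12 leading genes in each direction in the forebrain library (filled red) and in the 4 control NSPC libraries (open blue), in log2(TPM + 1). Globins sit at 0 in every control, and the 4 controls of each gene lie close together, apart from Dlx1, Islr2 and Meg3.

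Red cell transcripts made the largest differences. Hba-a2, an adult-type alpha globin, was at 4322 TPM in forebrain, and Hba-a1, a near-identical copy, at 2234 TPM, so that the split between these copies is uncertain. The adult-type beta globins Hbb-bs and Hbb-bt were at 1856 and 761 TPM, and the embryonic beta-like globin Hbb-y was at 2358 TPM. The embryonic Hba-x was at 345 TPM and Hbb-bh1, another embryonic globin, at 36.4 TPM. All of these globins were listed at 0 in each of the 4 controls. The 7 globins summed to 11912 TPM, 1.19% of the forebrain library. Embryonic forms were 47.8% of the beta-like and 4.996% of the alpha-like globin level.

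Other red cell genes were far lower in the tissue. Alas2, the erythroid enzyme of heme synthesis, was at 17.9 TPM in forebrain against 0.928, 0.297, 0 and 0.464 TPM in controls 1 to 4. Slc4a1, the anion exchanger of the red cell membrane, was at 3.72 TPM against at most 0.0553 TPM. The erythroid transcription factors Gata1 and Klf1 were at 0.163 and 0.399 TPM, below the level at which genes were kept. Of 16 erythroid genes in the table, 10 were kept and all 10 were higher in forebrain, against 24.7% of all genes kept. These genes passed the filter through the forebrain alone, which favours a higher call, so that the count supports nothing. Without the filter the list's median difference was 2.99 in place of 9.003.

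Genes of neuronal differentiation were nearly all higher in forebrain. Of 29 genes of neuronal differentiation and the neuronal cytoskeleton, 27 were higher in forebrain and 1 was lower, with a median difference of 2.75 against 0.35 for all genes, of which 24.7% were higher and 10.6% lower. Under median-of-ratios scaling 25 were higher. Of the 29, 4 were kept through the forebrain alone. Tubb3, the neuronal beta-tubulin, was at 1328 TPM in forebrain and at 12.5, 10.1, 11.98 and 12.5 TPM in controls 1 to 4. The controls lay close together, and the forebrain was 113-fold above their mean. Dcx, the microtubule protein of migrating neurons, was at 364 TPM against 0.971, 1.58, 1.40 and 2.34 TPM, a difference of 7.18. Stmn2, which regulates microtubules in growing axons, was at 327 TPM, and no control exceeded 0.322 TPM.

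Not all members were scarce in culture. Map2, a dendritic microtubule protein, was at 657 TPM in forebrain and at 308, 294, 296 and 313 TPM in the controls, so that its RNA was plentiful in the cultures too. Gap43, a growth cone protein, was the only member called lower: 209 TPM in forebrain against 573, 623, 646 and 646 TPM in the controls, which were 2.98-fold higher on average. The surface receptor Islr2 was at 566 TPM in forebrain against 0.156, 0.171, 0.104 and 1.07 TPM, with control 4 above the other controls.

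Synaptic and excitability genes differed less than cytoskeletal ones. Of 28 such genes, 17 were higher in forebrain, 1 was lower and 10 were not called, with a median difference of 1.51. Among all genes 24.7% were higher and 10.6% lower. Of the 28, 5 were kept through the forebrain alone. Scn3a, an embryonic sodium channel, was at 42.7 TPM in forebrain against 0.359 to 1.16 TPM in the controls. The most abundant member, the AMPA receptor subunit Gria2, was at 181 TPM in forebrain and 103 to 112 TPM in the controls, short of the 2-fold limit. Of 9 kept genes for granins and prohormone processing, which belong to dense-core vesicles, 6 (66.7%) were higher. Of these 9, 1 was kept through the forebrain alone. The granin Chga was at 54.2 TPM against 2.92 to 3.35 TPM, while Vgf, a neuropeptide precursor, was lower at 2.54 TPM against 6.45 to 7.43 TPM.

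Basal progenitor genes were mostly higher in the tissue. Of 16 basal progenitor and proneural genes 15 were higher and none lower, against 24.7% and 10.6% of all genes. Their median difference was 2.89. Under median-of-ratios scaling 14 were higher, against 2872 of all 15865 genes. Of the 16, 5 were kept through the forebrain alone. Eomes, the transcription factor that marks cortical basal progenitors, was at 113 TPM in forebrain and at 0.137, 0.185, 0.406 and 0.149 TPM in the controls. Neurog2, the dorsal proneural factor, was at 105.02 TPM against 0.0911, 0, 0.0863 and 0.286 TPM. Both genes were near 0 in every control. The GTPase Rnd2, which acts in neuronal migration, was the most abundant of the list, at 210.1 TPM against 15.7 to 18.6 TPM.

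Of 20 genes of the dorsal forebrain and cortical neurons, 15 were higher and 1 was lower, against 24.7% and 10.6% of all genes. The median of the 20 was 3.88, and 9 were kept through the forebrain alone. Neurod6, a factor of maturing cortical neurons, was at 330 TPM in forebrain and at 0.412, 0.302, 0.170 and 0.599 TPM in the controls. Tbr1, which specifies deep-layer neurons, was at 174 TPM against 0.411, 0.287, 0.586 and 0.469 TPM. Emx1, a dorsal progenitor factor, was at 84.1 TPM against 0.504 to 0.911 TPM. These genes were close to absent from the cultures. Emx2, a relative of Emx1 named after its values were seen, was not called, at 36.9 TPM against 47.7, 37.4, 49.2 and 53.3 TPM, and Zfpm2 was the member called lower, at 4.90 TPM against 14.6 to 17.6 TPM.

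The ventral forebrain list differed most among the lists of neural genes by its median, 4.70. In it 22 of 24 genes were higher and 1 was lower, against 24.7% and 10.6% of all genes. Of the 24, 13 were kept through the forebrain alone. Dlx1, a homeobox factor of GABAergic precursors, was at 498 TPM in forebrain and at 2.26, 0.295, 0.315 and 2.28 TPM in controls 1 to 4. Controls 1 and 4 were thus above controls 2 and 3. Dlx1as, which overlaps Dlx1 on the other strand, was at 309 TPM, but whether the counting used strand is not given in the sources used here, so that reads of this pair cannot be told apart with certainty. Dlx2 was at 190 TPM against 0.544, 0.376, 0.439 and 0.799 TPM.

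Transmitter and subtype genes followed the same pattern. Gad1, which makes GABA, was at 144 TPM against 4.19, 7.23, 2.88 and 5.88 TPM, a 28.5-fold difference. Nkx2-1, the factor of the medial ganglionic eminence, was at 104 TPM against 0.321 to 0.730 TPM. Sst, the neuropeptide of one interneuron class, was at 137 TPM and listed at 0 in all 4 controls. Gsx1, a ventral progenitor factor, was the only member called lower, at 5.67 TPM in forebrain and 16.7, 25.1, 19.9 and 26.9 TPM in the controls, while its relative Gsx2, named after its values were seen, was higher, at 15.9 TPM against 0.180 to 0.423 TPM.

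Genes of neighbouring brain regions were looked at next. Of 17 genes of the diencephalon, the caudal part of the forebrain, 11 were kept. Of these 10 (90.9%) were higher and none lower, against 24.7% and 10.6% of all genes. Of the 11, 7 were kept through the forebrain alone, and without the filter the list's median difference was 1.43 in place of 1.96. Otx2 was at 32.4 TPM against 0.489 to 1.73 TPM, and Tcf7l2, abundant in thalamus, at 40.6 TPM against 13.47 to 15.5 TPM, while the hypothalamic factors Rax and Foxb1 were under 1 TPM everywhere. Of 20 midbrain, hindbrain and Hox genes, 16 were listed at 0 in forebrain. Only En2, a midbrain-hindbrain factor, was kept, at 0.0883 TPM in forebrain and 0.920 to 1.66 TPM in the controls. Of 10 kept genes of Cajal-Retzius cells, early neurons of the cortical surface, 8 (80.0%) were higher, and 6 of the 10 were kept through the forebrain alone. Reln, their secreted guidance protein, was at 76.4 TPM against 2.76, 2.28, 1.24 and 0.585 TPM.

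Radial glial genes split in both directions. Of 24 neural stem and radial glial genes, 8 were higher in forebrain, 9 lower and 7 not called. The shares were 33.3% higher and 37.5% lower, against 24.7% and 10.6% of all genes. Sox2, the stem cell factor, was at 229 TPM in forebrain and 262, 277, 263 and 290 TPM in the controls, and Nes, the intermediate filament of progenitors, was at 108 TPM against 346, 368, 396 and 358 TPM. Both progenitor markers were thus plentiful in tissue and in culture.

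Among the members lower in tissue, Fabp7, a lipid carrier of radial glia, was at 787 TPM in forebrain and 4814, 5068, 5122 and 4781 TPM in the controls, 6.29-fold lower than their mean. Tnc, a matrix glycoprotein, was at 7.27 TPM against 329, 371, 333 and 396 TPM. Slc1a3, the glial glutamate transporter, was at 46.5 TPM against 512, 383, 444 and 439 TPM.

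Among the members higher in tissue, Pax6, a dorsal patterning factor, was at 112 TPM in forebrain and at 19.8, 29.1, 21.4 and 28.4 TPM in the controls. Gli3, a Hedgehog pathway repressor with a role in dorsal patterning, was at 34.4 TPM against 3.91, 3.76, 4.27 and 4.13 TPM. In both genes the controls did not come near the tissue level.

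Glial genes of later stages were lower in forebrain. Of 11 kept oligodendrocyte lineage genes 8 were lower and 2 higher, against 10.6% and 24.7% of all genes, at a median of -2.05. Olig1, a bHLH factor of this lineage, was at 3.79 TPM in forebrain and at 1082, 1245, 1065 and 1169 TPM in the controls, 301-fold higher on average. Olig2 was at 30.4 TPM against 605, 621, 607 and 622 TPM, so that it was also present in the tissue. Pdgfra and Sox10, which mark oligodendrocyte precursors, were low in culture as well: Pdgfra was at 1.55 TPM against 5.401 to 10.1 TPM and Sox10 at 0.267 TPM against 0.922 to 5.33 TPM.

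Myelin genes went the other way at low levels. Mbp was at 10.9 TPM in forebrain and 0.720 to 1.78 TPM in the controls. Of 12 kept astrocyte genes 9 were lower and none higher, against 10.6% and 24.7% of all genes, at a median of -2.23. Cd44, a hyaluronan receptor, was at 0.767 TPM in forebrain against 44.4, 41.2, 42.0 and 35.1 TPM. Gfap, the astrocyte intermediate filament, was listed at 0 in forebrain and at 11.9, 5.31, 11.04 and 8.23 TPM in the controls. Apoe, a lipid carrier, was at 60.0 TPM against 369, 373, 340 and 544 TPM.

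Genes of the response to EGF and FGF, which the culture medium supplies, were nearly all lower in tissue. Whether the medium accounts for this was not tested. Of 16 such genes 15 were lower and 1 higher, against 10.6% and 24.7% of all genes, at a median of -2.89. Under median-of-ratios scaling the counts were the same and the median was -3.08. Egfr, the EGF receptor, was at 0.295 TPM in forebrain and at 83.6, 88.8, 91.9 and 94.8 TPM in the controls. Spry4, a feedback inhibitor of receptor tyrosine kinase signalling, was at 1.30 TPM against 104, 103, 110 and 105.3 TPM. Etv5, an ETS factor induced by FGF, was at 13.9 TPM against 174, 166, 179 and 168 TPM. In each of these the cultures agreed closely among themselves. Dusp4, an ERK phosphatase, was the exception, at 129 TPM in forebrain and 25.7 to 36.5 TPM in the controls. The ligand Fgf1 was at 0.107 TPM against 61.1, 54.8, 56.4 and 54.8 TPM.

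Other secreted and surface proteins were among the leading genes lower in forebrain. Serpine2, an extracellular protease inhibitor, was at 6.68 TPM in forebrain and 1285, 1197, 1225 and 1231 TPM in the controls, 185-fold higher on average. Igfbp3, an IGF-binding protein, was at 6.17 TPM against 520, 534, 531 and 536 TPM. Lgals1, a galectin, was at 12.7 TPM against 1281, 1194, 1201 and 1127 TPM. It belongs to a list of 23 actin, adhesion and matrix genes with 8 members higher and 8 lower. That is 34.8% in each direction, against 24.7% higher and 10.6% lower of all genes. Under median-of-ratios scaling and under quantile normalization 6 of the 23 were higher and 10 lower. Ccn1, a matrix protein and YAP target, was the member furthest in the other direction, at 70.9 TPM against 3.72 to 5.08 TPM. Angpt2, a vessel-destabilizing ligand, was at 0.781 TPM against 101, 99.99, 90.3 and 94.9 TPM.

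Intracellular genes among the leaders included Ephx1, a detoxifying epoxide hydrolase, at 1.05 TPM in forebrain and 267, 268, 259 and 308 TPM in the controls. The mitochondrial glutamate carrier Slc25a18 was at 0.759 TPM against 154, 135, 137 and 142 TPM. The calcium-binding copine Cpne7 was at 0.0817 TPM against 64.8, 59.5, 59.0 and 53.8 TPM. Rab26, a vesicle GTPase, was at 0.607 TPM against 97.7, 93.2, 75.3 and 85.9 TPM, all 4 controls being far above the tissue in each of these genes.

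Few cell division genes reached the 2-fold limit, but most lay below every control. Of 27 G1/S and replication genes, 3 were lower and none higher, at a median of -0.54, and of 30 genes of G2/M and mitosis 3 were lower and none higher, at a median of -0.44. The lower shares, 11.1% and 10.0%, lay near the 10.6% of all genes, of which 24.7% were higher. Both medians were below the 0.35 of all genes. Below every control were 20 of the 27 and 26 of the 30, against 4792 of all 15865 genes. Median-of-ratios scaling gave 7 and 5 lower, against 2284 of all 15865 genes in that setting. Ccnd1, the cyclin that links growth factors to G1, was the widest difference, at 87.8 TPM in forebrain and 1349, 1383, 1428 and 1340 TPM in the controls, which were 15.7-fold higher on average. Cdk1, the mitotic kinase, was at 204 TPM against 537, 523, 520 and 462 TPM. The other 24 members of the first list and 27 of the second were not called.

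The CDK inhibitors, which brake the cell cycle, were lower in 4 of 7 genes and higher in 1, against 10.6% and 24.7% of all genes. Cdkn1a (p21) was at 7.999 TPM in forebrain and 476, 479, 484 and 480.4 TPM in the controls, a 60.0-fold difference with a narrow spread between cultures. Cdkn2a (p16 and p19Arf), a gene that accumulates in cultured cells, was listed at 0 in forebrain and was at 33.0, 37.7, 39.2 and 36.7 TPM in the controls. Its neighbour Cdkn2b was at 0.0784 TPM against 30.0, 26.3, 26.5 and 27.1 TPM. Cdkn1c (p57), an inhibitor of differentiating cells, went the other way, at 128 TPM in forebrain and 5.90, 6.62, 6.54 and 10.1 TPM in the controls. Cdkn2c was lower, at 21.7 TPM against 79.6 to 88.1 TPM, while Cdkn1b was at 146 TPM against 85.5 to 94.1 TPM and Cdkn2d at 41.5 TPM against 52.2 to 57.4 TPM, neither of them called.

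Of 10 Hedgehog pathway genes 5 (50.0%) were higher and none lower, against 24.7% and 10.6% of all genes. Of the 10, 3 were kept through the forebrain alone. Gli1, the transcription factor and target of the pathway, was at 7.15 TPM in forebrain and at 0, 0.0202, 0.0198 and 0.0635 TPM in the controls. Of 13 kept Wnt genes 4 were higher and 2 lower, shares of 30.8% and 15.4% that lie near the 24.7% and 10.6% of all genes. Of these 13, 1 was kept through the forebrain alone. Sfrp1, a secreted Wnt inhibitor, was at 106 TPM against 5.98, 5.58, 4.67 and 6.34 TPM, and the ligand Wnt5a was lower at 6.58 TPM against 19.1 to 22.7 TPM.

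Bmp genes and the Id factors, their targets, had 4 higher and 4 lower members of 12. That is 33.3% in each direction, against 24.7% higher and 10.6% lower of all genes. Of the 12, 3 were kept through the forebrain alone. Id4, which keeps progenitors undifferentiated, was at 117 TPM in forebrain and 1.70, 1.83, 1.57 and 1.87 TPM in the controls, a 67.4-fold difference. Of the other Id factors, Id1 and Id3 were called lower and Id2 was not called. The ligand Bmp7 was lower too, at 1.53 TPM against 48.5, 44.3, 47.9 and 45.8 TPM. Of 17 immediate early genes 5 (29.4%) were higher and 4 (23.5%) lower, at a median of -0.00, or -0.32 under median-of-ratios scaling. The share of higher genes lay near that of all genes. Of these 17, 1 was kept through the forebrain alone. Fosb was at 79.8 TPM in forebrain against 1.69, 1.69, 0.772 and 0.571 TPM, and Arc, a neuronal activity gene, was lower at 2.34 TPM against 13.9 to 17.9 TPM.

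Lipid synthesis genes were lower in the tissue as groups. Of 23 cholesterol synthesis genes 16 were lower and none higher, against 10.6% and 24.7% of all genes, at a median of -1.34. All 23 were below every control, against 4792 of all 15865 genes. Under median-of-ratios scaling 20 were lower, against 2284 of all 15865. Idi1, an enzyme of the mevalonate route, was at 65.6 TPM in forebrain and 393, 344, 381 and 339 TPM in the controls. The most abundant member, Hmgcs1, was at 254 TPM against 965, 803, 881 and 842 TPM. Of 11 fatty acid synthesis genes 6 (54.5%) were lower and none higher. Scd1, a stearoyl-CoA desaturase, was at 7.21 TPM against 205, 176, 175 and 198 TPM, a 26.1-fold difference.

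Of 22 genes of the integrated stress response, which answers amino acid shortage among other stresses, 9 (40.9%) were lower and none higher. Among all genes 10.6% were lower and 24.7% higher. Sesn2, a leucine sensor, was at 3.70 TPM in forebrain and 44.6, 48.1, 47.7 and 53.6 TPM in the controls. Of 17 glycolysis genes 5 (29.4%) were lower and 2 (11.8%) higher. Median-of-ratios scaling gave 8 lower and none higher, against 2284 lower and 2872 higher of all 15865 genes. Gpi1, the glucose phosphate isomerase, was at 142 TPM against 511, 533, 453 and 693 TPM, while Gapdh was at 2422 TPM against 1633 to 1922 TPM and was not called. Of 12 kept interferon and MHC genes 8 (66.7%) were lower and none higher. B2m, the beta-2-microglobulin chain of class I molecules, was at 43.1 TPM against 157, 154, 149 and 183 TPM.

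Of 21 nuclear genes of oxidative phosphorylation only Cycs, cytochrome c, was lower, at 45.7 TPM against 125 to 142 TPM. None of the 21 was higher, while 24.7% of all genes were higher and 10.6% lower. Under median-of-ratios scaling 7 of the 21 were lower, against 2284 of all 15865 genes. The mitochondrially encoded genes summed to 4.66% of the forebrain library and 8.79% to 9.16% of the controls, and 8 of 13 such protein-coding genes were lower. A set of 5 nuclear pseudogenes of mitochondrial sequence took a further 4.10% of the forebrain library and 7.03% to 7.16% of the controls, so that the split of these reads is uncertain. Of 22 cytosolic ribosomal protein genes 1 (4.55%) was lower and none higher, at a median of -0.26.

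Several chromatin and imprinted genes stood out. The BAF remodelling complex exchanges subunits as progenitors become neurons. Of the neuronal subunits, Actl6b was at 137 TPM in forebrain and 0.0284, 0.234, 0.617 and 0.364 TPM in the controls. Dpf1 was at 176 TPM against 40.7, 34.3, 37.4 and 47.5 TPM, and Ss18l1 at 39.5 TPM against 8.78 to 10.2 TPM. Dpf3 went the other way, at 8.62 TPM against 115, 110.3, 106 and 122 TPM.

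None of the 4 progenitor subunits was called. Actl6a was at 122 TPM against 77.4 to 88.5 TPM, and Dpf2 at 170 TPM against 80.5 to 103 TPM. Ss18 was at 66.1 TPM against 92.2 to 94.4 TPM, and Phf10 at 68.7 TPM against 84.0 to 94.0 TPM. The neuronal subunits thus differed more than the subunits they replace.

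Of 20 kept imprinted genes, which are expressed from one parental copy, 14 were higher and 1 lower, at a median of 2.41. Among all genes 24.7% were higher and 10.6% lower. Of the 20, 3 were kept through the forebrain alone, and without the filter the list's median was 1.81 in place of 2.41. Meg3, a maternally expressed noncoding RNA of the Dlk1-Dio3 cluster, was at 665 TPM in forebrain and 4.23, 1.63, 2.72 and 3.69 TPM in the controls. Rian, from the same cluster, was at 525 TPM against 4.13, 3.18, 2.84 and 4.76 TPM. These were 217-fold and 141-fold above the control mean. Nnat, a small membrane protein of neurons, was the most abundant imprinted gene, at 4089 TPM against 295, 342, 358 and 382 TPM. Mest was the member called lower, at 299 TPM against 544, 619, 621 and 614 TPM. Outside the imprinted genes, the nuclear noncoding RNA Miat was at 742 TPM against 2.57, 4.09, 3.25 and 8.91 TPM, while Malat1, an abundant nuclear RNA, was at 956 TPM against 490.3 to 881 TPM.

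Genes of non-neural cells were looked at as markers of what else the tissue holds. Of 19 endothelial genes 16 were higher in forebrain and 1 lower, against 24.7% and 10.6% of all genes. Their median was 2.11, and 13 of the 19 were kept through the forebrain alone. Cldn5, the tight junction protein of brain vessels, was at 18.04 TPM in forebrain and at 0.294, 0, 0 and 0.0741 TPM in the controls, and Pecam1 was at 12.6 TPM against 0.0554 to 0.285 TPM. Plvap, a protein of leaky vessels, was lower at 7.12 TPM against 21.1 to 23.6 TPM. Rgs5, a pericyte gene, was at 21.4 TPM against 0.0875 to 0.227 TPM, and 5 (71.4%) of 7 kept mural cell genes were higher. Of these 7, 5 were kept through the forebrain alone, and without the filter the list's median was 0.87 in place of 2.54.

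Of 12 kept genes of microglia and macrophages 11 were higher and 1, Pf4, was lower, against 24.7% and 10.6% of all genes. The number kept through the forebrain alone was also 11. The filter favours a higher call in such genes, so that this count supports nothing. Without the filter the list's median was 1.28 in place of 2.10. Csf1r, the receptor on which these cells depend, was at 8.71 TPM against 0, 0.0179, 0.181 and 0.0381 TPM. The fractalkine receptor Cx3cr1 was at 1.65 TPM against 0.110 to 0.220 TPM. The summed level of all 18 listed genes was 65.3 TPM in forebrain and 6.50 to 11.2 TPM in the controls. That of 19 endothelial genes was 177 TPM in forebrain and 51.6 to 55.8 TPM in the controls.

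Of 16 meningeal and fibroblast genes 8 were kept, of which 1 was higher and 1 lower. That is 12.5% in each direction, against 24.7% higher and 10.6% lower of all genes, so that the lower share lay near that of all genes. The summed level of all 16 was 59.3 TPM in forebrain and 47.0 to 68.5 TPM in the controls. Crabp2, a retinoic acid carrier, was the higher one, at 40.3 TPM in forebrain and 0, 0, 0.604 and 0.639 TPM in the controls. Prrx1, a homeobox factor of mesenchyme, was the lower one, at 10.4 TPM against 46.8, 39.8, 40.8 and 39.8 TPM. Col1a1, the fibroblast collagen, was at 0.286 TPM in forebrain against 0.319 to 3.20 TPM, and Lum was at 0.0923 TPM in forebrain. Of 10 choroid plexus genes 2 were kept and 7 were under 1 TPM everywhere. Ttr, the leading marker of that tissue, was higher at 7.21 TPM against at most 0.184 TPM, and the secreted enzyme Enpp2 was lower at 3.31 TPM against 7.09, 9.92, 6.23 and 12.9 TPM.

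**Figure D3:**
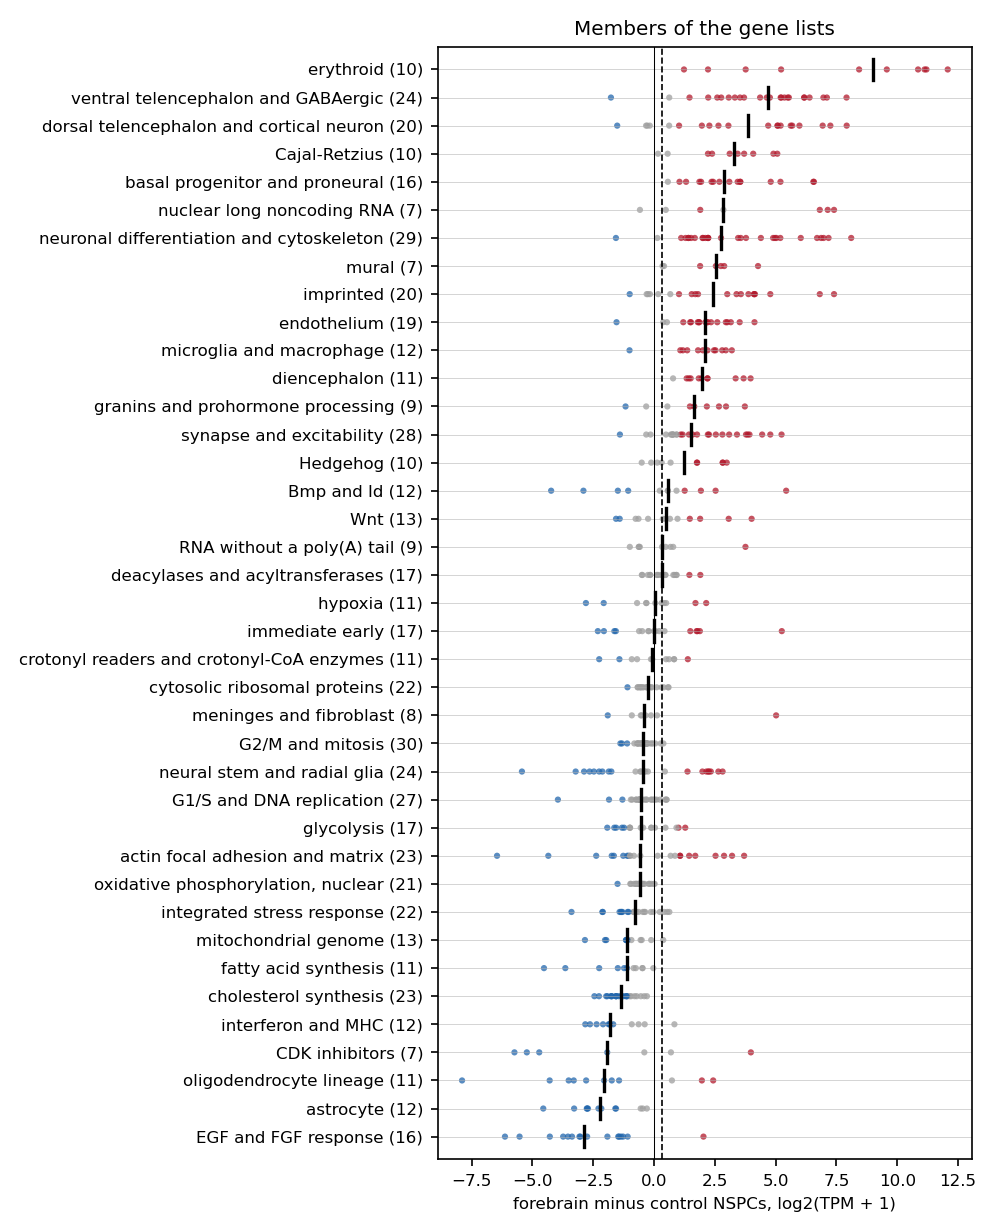
Difference of each kept gene between forebrain and control NSPCs, forebrain minus control in log2(TPM + 1), by gene list (number kept in brackets). Red points were called higher, blue lower and grey neither, black bars mark list medians, the solid line marks 0 and the dashed line the median of all genes, 0.35. Medians run from 9.003 for erythroid genes to -2.89 for the EGF and FGF response. All 10 erythroid genes were kept through the forebrain alone, and without the filter their median was 2.99.

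The enzymes of histone acylation, the subject of the study, differed little. Of 17 deacylases and acyltransferases 2 (11.8%) were higher and none lower, against 24.7% and 10.6% of all genes. The median of the 17 was 0.31, below the 0.35 of all genes, and -0.00 under median-of-ratios scaling. Kat6b, an acetyltransferase, was at 52.8 TPM in forebrain and 12.3, 14.1, 12.7 and 14.5 TPM in the controls, and Crebbp (CBP), which can also place crotonyl groups, was at 32.1 TPM against 11.6, 10.99, 10.2 and 11.5 TPM. The most abundant member, the deacetylase Hdac2, was at 405 TPM against 226 to 244 TPM and was not called.

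Of 11 kept genes for readers of crotonyl-lysine and enzymes of crotonyl-CoA metabolism, 1 was higher and 2 lower. These shares, 9.09% and 18.2%, stand beside 24.7% and 10.6% of all genes. Acss2, which makes acyl-CoA from short-chain acids, was at 15.8 TPM against 84.7, 71.4, 76.1 and 85.8 TPM. Hadh, a mitochondrial enzyme of fatty acid oxidation, was lower at 24.99 TPM against 66.1 to 71.1 TPM. The reader Mllt3 (AF9) was higher, at 54.0 TPM against 16.8, 26.1, 16.4 and 22.1 TPM.

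The deposited peak lists give a second readout that played no part in the calls. The forebrain lists are of H3K9ac and H3K9cr, acetylation and crotonylation of histone H3 lysine 9, and the control NSPC lists are of acetyl-lysine and crotonyl-lysine on histones in general, 1 library each. Antibody and tissue therefore cannot be told apart. A position could be given to 14332 of the genes kept, 90.3%. Within 1 kb of the start, or of either end where no strand was known, an H3K9ac peak of the forebrain lay at 76.8% of the genes higher in forebrain (95% Wilson interval 75.3% to 78.2%), at 72.9% of the lower ones and at 87.9% of the rest. The intervals treat genes as independent and cover counting error only.

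In the NSPC acetyl-lysine list the order of higher and lower genes was the reverse. A peak lay at 45.7% of the higher genes (44.1% to 47.4%) and 67.5% of the lower ones (65.1% to 69.7%). Of the uncalled genes 73.2% had such a peak, and of all genes given a position 66.1%, near the share of the lower ones. For crotonylation the shares were 64.8% of higher, 50.3% of lower and 80.4% of uncalled genes in the forebrain H3K9cr list. In the NSPC crotonyl-lysine list they were 39.3%, 58.8% and 65.1%. Over all genes given a position they were 73.3% for H3K9cr and 58.3% for NSPC crotonyl-lysine, the latter near that of the lower genes. A forebrain H3K9ac peak without an NSPC acetyl-lysine peak was found at 31.4% of higher, 13.6% of lower and 15.6% of uncalled genes. The reverse was found at 0.357% of higher genes (12 genes), 8.18% of lower genes (131) and 0.779% of uncalled ones.

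The level of a gene went with its peaks. Among genes of 1 to 5 TPM in forebrain, an H3K9ac peak lay at 43.3% of higher, 73.6% of lower and 59.5% of uncalled genes, and from 20 to 100 TPM at 94.2%, 94.8% and 97.6%. Below 20 TPM the genes lower in tissue thus had an H3K9ac peak more often than the higher ones at a like forebrain level, the opposite order to that over all levels. For H3K9cr the order also depended on the level, with 24.7% of higher and 37.5% of lower genes at 1 to 5 TPM and 87.7% and 81.9% at 20 to 100 TPM. In the NSPC acetyl-lysine list, binned by the control mean, 39.2% of higher and 28.0% of lower genes had a peak at 1 to 5 TPM, and 83.2% and 80.5% at 20 to 100 TPM.

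**Figure D4:**
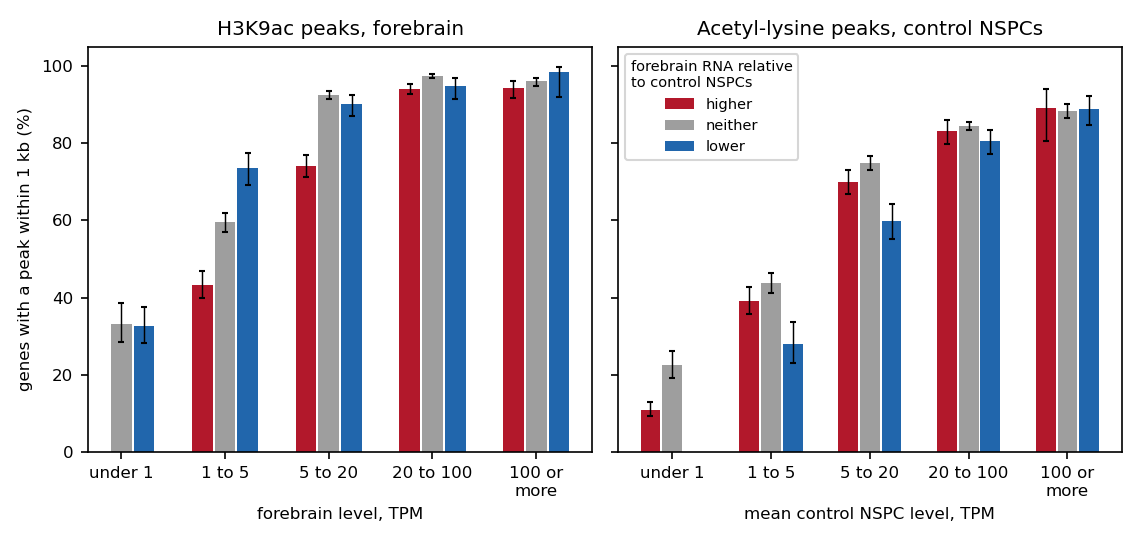
Share of genes with a peak within 1 kb, in percent, for genes called higher (red), neither (grey) or lower (blue) in forebrain RNA. Genes are grouped by their TPM in forebrain (left, forebrain H3K9ac) or by their mean in control NSPCs (right, NSPC acetyl-lysine), with 95% Wilson intervals as error bars and bins under 20 genes left out. At 20 TPM or more the shares on the left lie between 94.2% and 98.5%.

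Over all genes given a position, 83.7% had a forebrain H3K9ac peak and 66.1% an NSPC acetyl-lysine peak. Of 24 ventral forebrain genes 22 had a forebrain H3K9ac peak and 4 an NSPC acetyl-lysine peak. The figures were 17 and 9 of 20 for the dorsal list, and 26 and 10 of 29 for the neuronal one. For H3K9ac the ventral, dorsal and neuronal lists thus lay near or a little above the share of all genes. None of the 10 erythroid and 12 microglial genes had a peak in any of the 4 lists, and 3 of 19 endothelial genes had a forebrain H3K9ac peak.

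Single genes illustrate these classes. Tubb3 had forebrain peaks of 49.1-fold enrichment for H3K9ac and 18.7-fold for H3K9cr, as the authors' peak caller gave them, and none in either NSPC list. The same held for Dcx (25.2-fold and 10.5-fold), Dlx2 (20.9-fold and 10.8-fold), Tbr1 (17.5-fold and 12.8-fold) and Neurod6 (17.7-fold and 10.2-fold). Egfr, Olig1, Slc25a18 and Fgf1 had both NSPC peaks and no forebrain peak. Serpine2, Ephx1, Igfbp3 and Olig2 had a forebrain H3K9ac peak without an H3K9cr peak, beside both NSPC peaks. Cdkn2a, listed at 0 in forebrain RNA, still had a forebrain H3K9ac peak of 3.81-fold enrichment. Sst, at 137 TPM, had none in any list.

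The 250 bases before the start of some of these genes, from RefSeq on GRCm38.p6, are shown because these genes carry the patterns just described. Neurod6, Tbr1 and Dlx2 stand for genes marked in forebrain alone, Sst and Hbb-bs for transcripts without a peak, Egfr for marks in NSPCs alone and Serpine2 for a gene lower in tissue with a forebrain H3K9ac peak. The windows are chr6:55681264-55681513 (minus strand) for Neurod6, chr2:61804203-61804452 (plus strand) for Tbr1, chr2:71546755-71547004 (minus strand) for Dlx2, chr16:23890845-23891094 (minus strand) for Sst, chr7:103827929-103828178 (minus strand) for Hbb-bs, chr11:16751953-16752202 (plus strand) for Egfr and chr1:79858666-79858915 (minus strand) for Serpine2. Each is given 5′ to 3′ in the direction of the gene. Capitals mark matches to 8 words, all searched on both strands. They are the CAAT box word CCAAT, the GC box word GGGCGG, the TATA box word TATAAA, the homeodomain core word TAATTA, the E-box word CAGATG, the cAMP response element TGACGTCA, the beta globin promoter word CCACACCC and the GATA factor word AGATAA.
Neurod6: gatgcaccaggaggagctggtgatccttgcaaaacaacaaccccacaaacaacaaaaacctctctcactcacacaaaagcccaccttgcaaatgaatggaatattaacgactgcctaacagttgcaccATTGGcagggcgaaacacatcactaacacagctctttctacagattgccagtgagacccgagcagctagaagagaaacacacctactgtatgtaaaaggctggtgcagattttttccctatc
Tbr1: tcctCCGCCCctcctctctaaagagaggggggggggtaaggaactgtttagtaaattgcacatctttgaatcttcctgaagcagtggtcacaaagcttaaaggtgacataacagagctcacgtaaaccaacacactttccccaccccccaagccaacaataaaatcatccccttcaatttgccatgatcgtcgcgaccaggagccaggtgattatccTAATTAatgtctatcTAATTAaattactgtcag
Dlx2: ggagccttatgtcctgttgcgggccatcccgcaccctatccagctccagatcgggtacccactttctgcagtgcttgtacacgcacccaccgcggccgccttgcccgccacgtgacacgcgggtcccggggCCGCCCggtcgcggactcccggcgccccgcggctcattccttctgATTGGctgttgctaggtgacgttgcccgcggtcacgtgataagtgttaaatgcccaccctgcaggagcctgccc
Sst: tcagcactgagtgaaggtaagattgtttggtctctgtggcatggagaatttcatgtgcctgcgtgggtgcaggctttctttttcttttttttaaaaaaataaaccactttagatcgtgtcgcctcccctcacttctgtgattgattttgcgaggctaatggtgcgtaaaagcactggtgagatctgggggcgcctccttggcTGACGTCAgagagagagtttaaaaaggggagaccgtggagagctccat
Hbb-bs: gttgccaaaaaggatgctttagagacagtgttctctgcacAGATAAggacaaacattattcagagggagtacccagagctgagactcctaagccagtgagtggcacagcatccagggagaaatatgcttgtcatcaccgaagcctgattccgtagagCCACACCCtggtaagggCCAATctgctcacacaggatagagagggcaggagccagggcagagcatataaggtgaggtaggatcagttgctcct
Egfr: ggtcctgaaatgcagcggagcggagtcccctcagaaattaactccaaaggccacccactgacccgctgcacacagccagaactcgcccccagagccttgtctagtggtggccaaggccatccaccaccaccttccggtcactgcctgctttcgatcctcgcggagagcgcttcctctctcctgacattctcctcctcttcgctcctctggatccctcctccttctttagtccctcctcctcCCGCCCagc
Serpine2: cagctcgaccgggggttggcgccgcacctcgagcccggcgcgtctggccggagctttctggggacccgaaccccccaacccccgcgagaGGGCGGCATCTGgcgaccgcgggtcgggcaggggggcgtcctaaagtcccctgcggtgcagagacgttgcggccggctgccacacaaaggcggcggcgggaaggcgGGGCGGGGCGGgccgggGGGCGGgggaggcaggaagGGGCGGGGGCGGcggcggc

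The Sst window holds TGACGTCA at 48 bases before the start, the cAMP response element for which this promoter is known. TGACGTCA occurs in 1.62% of all 27025 RefSeq windows of this length. Hbb-bs holds CCACACCC at 93 and CCAAT at 76 bases before the start, an arrangement known from adult beta globin genes, and AGATAA further out. CCACACCC occurs in 3.19%, CCAAT in 34.5% and AGATAA in 10.3% of all windows. Tbr1 holds TAATTA at 33 and 18 bases before the start, a word found in 4.90% of windows. Serpine2 is the most GC-rich of them at 78.8% G or C and holds 6 matches to GGGCGG, 2 of which overlap, and 1 to CAGATG. The word GGGCGG occurs in 32.9%, CAGATG in 14.5% and TATAAA in 12.97% of windows. Neurod6, at 46.0% G or C, holds CCAAT alone. A match is a description of letters and not a binding site.

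Over all genes with a stranded start, sequence around the start differed between called and uncalled genes and hardly between the directions. A CpG ratio (observed over expected) under 0.4 was found in 22.2% of higher, 22.4% of lower and 10.8% of uncalled genes. Of the 8 words GGGCGG differed most in share between the directions, at 57.3% of higher and 59.8% of lower genes.

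The treated cultures and the explants give the same genes under other conditions. The treated NSPC libraries share their controls with the forebrain comparison, so that values are given side by side only. Tubb3 was at 14.6 to 18.1 TPM under crotonate and 26.1 to 30.7 TPM under MS-275, against 10.1 to 12.5 TPM in the controls and 1328 TPM in forebrain. Meg3 was at 23.9 to 33.1 TPM under crotonate and 17.4 to 26.1 TPM under MS-275, against 665 TPM in forebrain. Snap25, a synaptic fusion protein chosen after its values were seen, was at 23.3 to 26.8 TPM and 25.1 to 32.7 TPM under these treatments, against 2.98 to 5.85 TPM in the controls and 78.4 TPM in forebrain. For these 3 genes every treated library lay between the controls and the tissue.

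Other genes stayed near the controls or lay further from the tissue than they did. Neurod6 was at 0.0913 to 0.633 TPM under crotonate and 0.0918 to 0.773 TPM under MS-275, a range that holds all 4 controls. Id4 was at 1.96 to 2.31 TPM under crotonate, a little above all 4 controls, and at 1.41 to 1.84 TPM under MS-275, against 117 TPM in forebrain. Olig1 was at 1189 to 1405 TPM under crotonate and 2162 to 2406 TPM under MS-275, further from the 3.79 TPM of the tissue than the controls. Cdkn2a was at 62.1 to 75.8 TPM and 40.6 to 58.8 TPM, above all 4 controls in both groups, while the tissue was listed at 0.

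**Figure D5:**
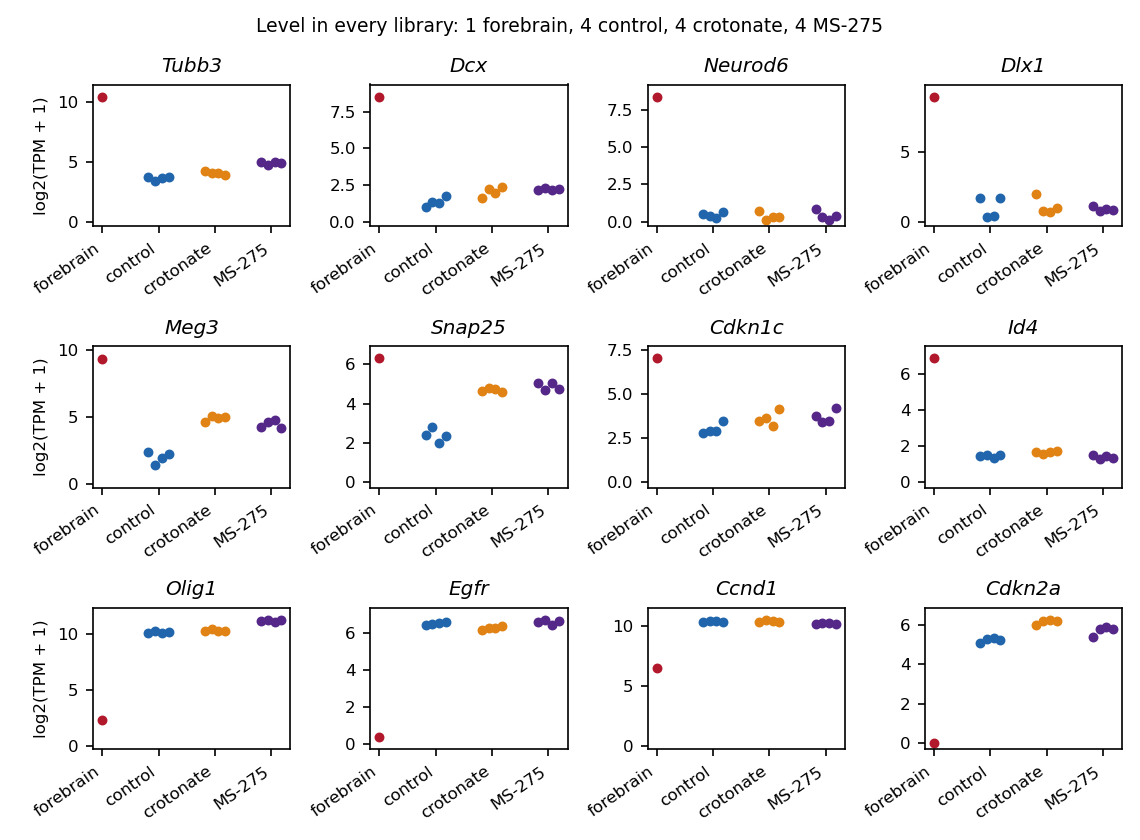
Level of 12 genes in log2(TPM + 1) in every library: forebrain (1, red), control NSPCs (4, blue), crotonate (4, orange) and MS-275 (4, purple). Each axis has its own scale, which includes 0. For Tubb3, Meg3 and Snap25 the treated libraries lie between the controls and the forebrain, and for Olig1 and Cdkn2a they do not.

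The explants, whole tissue of another mouse strain, give a further view of the same genes, but only as mean counts over control and crotonate explants together. In the authors' deposited table the mean normalized count was 38942 for Tubb3, 10616 for Neurod6, 4526 for Dlx1 and 27740 for Meg3. In the authors' deposited table it was 72.7 for Olig1, 48.7 for Egfr, 130 for Cdkn1a and 0.109 for Cdkn2a. These counts are not divided by gene length and cannot be set against TPM.

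The X-inactivation RNA Xist and the Y-linked genes split the controls. Xist was at 0.608, 285, 267 and 0.319 TPM in controls 1 to 4 and at 144 TPM in forebrain. Eif2s3y, a Y-linked gene, was at 76.1, 0, 0.0530 and 74.5 TPM and at 97.4 TPM in forebrain. Ddx3y was at 24.3, 0, 0 and 22.2 TPM against 21.8 TPM, Uty at 15.9, 0, 0 and 15.0 TPM against 13.2 TPM, and Kdm5d at 18.8, 0, 0 and 21.5 TPM against 28.1 TPM. The forebrain library thus held both kinds of RNA and each control 1 kind. Against controls 1 and 4 alone 3905 genes were higher and 1767 lower, and against controls 2 and 3 alone 4074 and 1708, a split chosen after the data were seen. Dlx1, with 2.26 and 2.28 TPM in controls 1 and 4 and 0.295 and 0.315 TPM in controls 2 and 3, divided the cultures in the same way, and the part of sex in this was not tested.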

How the data were processed

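The deposited TPM values per gene symbol were made by the authors, whose processing notes name Salmon 1.0.0 and the mouse build GRCm38; per the submitters' processing notes, Bowtie2 2.3.5.1, MACS2 2.2.5 and DESeq2 1.26.0 were also used. Counting strand and library depth are not given in the sources used here, and TPM keeps no depth. The explant values are the authors' deposited signal, a mean of normalized counts over 6 libraries. The forebrain peak lists hold fold enrichment as deposited, a ratio over a control library, and the NSPC lists were used for the deposited peak positions, an other unit with no height. Each peak list comes from 1 library.

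From these, differences in log2(TPM + 1) were computed for genes of at least 1 TPM in the forebrain or in 2 controls, with Python 3.11.15, pandas 2.3.3, numpy 2.4.6 and scipy 1.17.1; peaks were joined to RefSeq starts with bedtools 2.31.1, and figures were drawn with matplotlib 3.10.9. The code that makes the calls was tested on simulated data. No significance test between the groups was made, since the forebrain is 1 library. Members and the 45 gene lists were chosen with earlier results of these data known. Named genes are the 12 with the largest difference in each direction at 5 TPM or more in the higher group, without predicted or clone-named genes and pseudogenes. From each list they are also the 2 members furthest in the direction of its median, the first in the other direction where one was called, the most abundant member and listed cell type markers. All members of the erythroid, CDK inhibitor, BAF and sex lists could be named. Alternatives were other pseudocounts, filters, scalings, fold limits, peak distances and peak heights, and leaving out each control. Some genes that the rule names are not reported here.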

Additional observations from a re-analysis of the deposited data

Results flagged for a closer look

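In 5 of 102 named genes looked at, 4.90%, 1 control culture lay far from the other 3, by the gap to its nearest neighbour relative to the range of the group; chance alone gives about 1 in 20, so that this number is near what chance gives. Apoe was at 544 TPM in control 4 and 340.1 to 373 TPM in the others. Cdkn1c was at 10.1 TPM in control 4 and 5.90 to 6.62 TPM in the others. Islr2 was at 1.07 TPM in control 4 and 0.104 to 0.171 TPM in the others. Mest was at 544 TPM in control 1 and 614 to 621 TPM in the others. Prrx1 was at 46.8 TPM in control 1 and 39.8 to 40.8 TPM in the others.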

How the results depend on the processing

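No paired analysis was possible because the forebrain is a single library with no replicate number. All 24 leading genes kept their call and direction under each of 15 other settings. These genes were picked for the largest differences in the same data, far beyond the call limit. Their result was thus nearly fixed in advance and supports nothing. The count of genes higher in forebrain was 2602 with quantile normalization, and at 4-fold the counts were 1241 higher and 572 lower. Leaving out each control in turn gave 3886 to 4018 higher and 1667 to 1710 lower genes. Pseudocounts of 0.1 and 0.5 gave 4798 and 4470 higher and 1945 and 1831 lower. Of 27 lists with a median of at least 1 in size none reversed; 7 lists with smaller medians changed sign under some setting. The cause of these moves was not tested. Peak shares moved with the distance, the peak height and the expression level required. With 5 kb in place of 1 kb they were, for higher and lower genes, 80.4% and 75.7% for H3K9ac, 69.1% and 53.4% for H3K9cr, 50.9% and 71.4% for NSPC acetyl-lysine, and 43.7% and 62.8% for NSPC crotonyl-lysine. With forebrain peaks of at least 5-fold enrichment they were 71.4% and 61.7% for H3K9ac, and 55.6% and 36.8% for H3K9cr. For genes of 10 TPM or more in the higher group they were 91.6% and 83.8% for H3K9ac, 83.8% and 62.2% for H3K9cr, 61.7% and 78.9% for NSPC acetyl-lysine, and 53.7% and 69.9% for NSPC crotonyl-lysine. Depth is unknown, so that the precision of low values could not be given.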
